A study of Homo sapiens with 36 samples.

Results

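The 9 genes followed here belong to the MHC class I antigen presentation pathway. They are 9 of the 60725 Ensembl genes in each deposited table, and were measured by RNA-seq in libraries of breast cells. They were chosen by name from the pathway, with earlier results of these data known. They are the heavy chain genes HLA-B, HLA-C, HLA-E and HLA-F, the light chain gene B2M, the peptide transporter genes TAP1 and TAP2, and the immunoproteasome genes PSMB8 and PSMB9. The series held 36 libraries in 18 groups of 2. MCF-10A ER-Src, a non-transformed breast epithelial line, carries v-Src, an oncoprotein, joined to the ligand-binding part of the estrogen receptor. Tamoxifen (TAM) turns this fusion on, and ethanol (ETH) is the vehicle. All 20 ER-Src libraries carry this fusion, the ETH controls included. The TAM and ETH cells received siRNA pools that knock down JUNB (JUNBi), STAT3 (STAT3i), TAZ (TAZi) or YAP (YAPi), or a control siRNA (Ctrli). MDA-MB-231, a triple-negative breast cancer line, supplied 16 libraries. By their titles these form a set 1 with Ctrli, YAPi, TAZi, both siRNAs together (YAPi_TAZi) and an siRNA mix against the TEAD factors (TEADi), and a set 2 with its own Ctrli, JUNBi and STAT3i. The study asked which genes depend on these transcription factors and co-activators in the transformed state. The treatment protocol names TAM together with AZD0530, a Src-family kinase inhibitor, and the methods name a pair of treatment times without saying which applies to these RNA libraries. Both lines are single cultures, and nothing in the labels says that replicates came from separate cultures, so p-values measure the spread between libraries, which may be technical.

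MHC class I molecules present short peptides from inside the cell to CD8 T cells. The proteasome cuts proteins into peptides, and interferon-gamma replaces its standard catalytic subunits with immunoproteasome subunits such as PSMB8 and PSMB9. The TAP1-TAP2 heterodimer carries the peptides into the endoplasmic reticulum, where they are loaded onto a heavy chain held by the light chain beta-2-microglobulin. HLA-B and HLA-C are classical, highly variable heavy chains, whereas HLA-E and HLA-F are non-classical and are read mainly by receptors of natural killer cells. Interferon signalling, IRF1, NF-kB and the co-activator NLRC5 are known inducers of these genes. Lower class I expression is a common route by which tumours escape T cells.

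B2M lies on chromosome 15 and the other members lie in the MHC region of chromosome 6 (GRCh38, GENCODE version 44). HLA-F spans 29722775 to 29738528 on the plus strand, HLA-E 30489509 to 30494194 on the plus strand, HLA-C 31268749 to 31272130 on the minus strand and HLA-B 31353872 to 31367067 on the minus strand. The other 4 form one block. TAP2 (32821833 to 32838739, minus), PSMB8 (32840717 to 32844679, minus), TAP1 (32845209 to 32853816, minus) and PSMB9 (32844136 to 32859851, plus) lie side by side, and PSMB9 overlaps both PSMB8 and TAP1 on the opposite strand. B2M spans 44711358 to 44718851 on the plus strand. The HLA genes resemble each other and were aligned to reference alleles, so that reads could be shared among them. TAP2 lies inside a readthrough gene (ENSG00000250264) on its own strand, which took 0.0844% to 7.94% of the expected counts of the pair in the ER-Src libraries. Lastly, PSMB8, PSMB9 and TAP1 overlap one another or the antisense RNA PSMB8-AS1, HLA-F overlaps HLA-F-AS1, and whether counting used strand was not given in the sources used here, so that reads of such partners cannot be told apart.

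The start sites of 8 members were found in RefSeq promoter windows of 300 bases (GRCh38.p14, from 250 bases upstream to 50 bases downstream of the start site), in 10 windows. HLA-E had none. A script searched both strands for the core of the interferon response element (GAAA, any 2 bases, GAAA), the CCAAT box bound by NF-Y (CCAAT), a STAT site (TTCNNNGAA), an AP-1 site (TGANTCA), a TEAD site (GGAATG) and the NF-kB consensus. The interferon core was found for 5 of the 8 genes, HLA-F, B2M, TAP1, TAP2 and PSMB8, and in 3.57% of all 35116 windows. Windows of 4 genes (HLA-B, HLA-C, B2M and TAP1) held the NF-kB consensus, which 11.3% of all windows hold. A CCAAT box was found for 6 genes (34.6% of all windows), a STAT site for TAP1 and PSMB8 (7.66%), a TEAD site for B2M and PSMB8 (14%), and an AP-1 site for none (7.71%). These matches describe the letters of the windows and no binding was measured here. The windows of the 4 members that recur in the results below are shown 5′ to 3′ along the gene's own strand, in lower case, with matches to the interferon core or to the NF-kB consensus in capitals.

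HLA-B, chr6:31357130-31357429, minus strand: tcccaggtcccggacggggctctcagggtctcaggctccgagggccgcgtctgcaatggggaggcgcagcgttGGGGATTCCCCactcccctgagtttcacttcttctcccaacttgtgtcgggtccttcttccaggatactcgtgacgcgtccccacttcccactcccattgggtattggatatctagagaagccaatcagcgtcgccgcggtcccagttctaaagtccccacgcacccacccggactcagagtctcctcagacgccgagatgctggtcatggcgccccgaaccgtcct
B2M, chr15:44711267-44711566, plus strand: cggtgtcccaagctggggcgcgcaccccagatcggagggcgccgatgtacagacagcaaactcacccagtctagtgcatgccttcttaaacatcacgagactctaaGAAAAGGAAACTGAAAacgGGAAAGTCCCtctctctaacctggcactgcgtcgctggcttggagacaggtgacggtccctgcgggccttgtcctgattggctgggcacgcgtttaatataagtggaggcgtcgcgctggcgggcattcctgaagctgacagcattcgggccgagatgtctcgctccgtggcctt
TAP1, chr6:32853655-32853954, minus strand: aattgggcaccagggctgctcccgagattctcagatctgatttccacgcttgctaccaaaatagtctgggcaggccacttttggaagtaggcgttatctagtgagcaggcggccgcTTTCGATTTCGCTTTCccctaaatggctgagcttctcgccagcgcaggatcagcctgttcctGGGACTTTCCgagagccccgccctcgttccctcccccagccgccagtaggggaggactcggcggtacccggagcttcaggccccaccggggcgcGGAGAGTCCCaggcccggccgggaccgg
TAP2, chr6:32838690-32838989, minus strand: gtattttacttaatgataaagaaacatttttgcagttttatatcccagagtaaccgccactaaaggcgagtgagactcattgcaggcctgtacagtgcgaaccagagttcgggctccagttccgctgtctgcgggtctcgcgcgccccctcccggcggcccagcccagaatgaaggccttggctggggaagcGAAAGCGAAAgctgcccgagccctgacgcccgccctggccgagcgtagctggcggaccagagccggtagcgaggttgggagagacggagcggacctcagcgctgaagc

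HLA-B carried only NF-kB letters in capitals, with overlapping matches that begin at -177 and -176 from the start site. In HLA-C the single match began at -172, and in HLA-B, HLA-C and HLA-F a CCAAT box began at -56, -56 and -57. B2M held overlapping interferon cores from -144 and -138, next to an NF-kB match at -125. TAP1 held overlapping cores on the opposite strand from -134 and -128, with NF-kB matches at -72 and 23. TAP2 held a single core at -58. The TAP1 window and that of PSMB9 overlap, since both genes start from the same short stretch in opposite directions.

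Some libraries stand apart in ways that touch the results. Total expected counts per library were 6419720 to 19161700 in ER-Src, 13456784 and 13534560 in the set 1 controls, 1411304 to 2784605 in the 8 set 1 knockdown libraries and 7290499 to 18076158 in set 2. The 5 abundant RNAs RN7SL1, RN7SL2, RPPH1, RMRP and SNORD3A, which lack a poly(A) tail, took 0.018% to 0.0268% of TPM in the set 1 controls against 16.4% to 17.5% in replicate 1 and 41.3% to 42.6% in replicate 2 of the set 1 knockdowns, so that in set 1 knockdown and library type cannot be told apart. The gap between gene length and effective length was 75.0 bases in these controls, 48.0 in replicate 1 and 74.6 in replicate 2 of the knockdowns, so that the replicates of each knockdown differ in type as well. They took 17.4% to 22.8% in ER-Src and 0.0144% to 0.0485% in set 2. The ER-Src libraries expressed basal breast keratins (KRT5 at 1011.9 to 2622.3 TPM), whereas KRT5 was at 0 in the set 1 controls and set 2, and at 5.99 to 11.5 TPM in the 4 set 1 knockdown libraries of replicate 1. VIM, a marker of MDA-MB-231, was at 183.7 to 337.7 TPM in ER-Src, 2524.2 to 2590.8 in the set 1 controls and 817.4 to 1599.3 in set 2. The other such markers, ZEB1 and FN1, were not higher in set 2 than in ER-Src. ZEB1 was at 2.37 to 5.74, 14.8 to 15.3 and 0.82 to 1.44 in the same order. FN1 was at 22.6 to 87.0, 240.3 to 274.6 and 14.4 to 45.8. Among 7 leukocyte genes PTPRC, CD3E and ITGAM stayed at or below 0.37 TPM in all libraries, whereas others did not. CD68 was at 1.86 to 18.1 TPM in ER-Src and 26.2 to 148.2 in MDA-MB-231, HLA-DRA at up to 5.14 and up to 213.5, and CD14 at 3.01 to 9.6 and 0.15 to 6.12. The targeted gene was lower and called in each ER-Src knockdown except JUNB in JUNBi under ETH (log2 -1.16, adjusted p 0.064 by DESeq2). In set 1 the targeted genes were also called lower against the controls, but WWTR1 (the gene of TAZ), TEAD3 and TEAD4 were so in all 4 knockdowns. Against the other set 1 knockdowns, WWTR1 was called lower in TAZi, and TEAD1 and TEAD2 in TEADi. No targeted gene was called there in YAPi or YAPi_TAZi, where 3 and 6 of 8 had an adjusted p. The references of YAPi and TAZi held YAPi_TAZi, and that of YAPi_TAZi held YAPi and TAZi.

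In ER-Src cells B2M was the highest of the 9 genes and PSMB9 the lowest in 20 of 20 libraries. On the TPM scale, which is per length and so allows levels of different genes to be compared, B2M ranged from 320.1 to 767.0 with a median of 440.5. The classical heavy chains came next, with HLA-C at 56.9 to 98.0 (median 73.9) and HLA-B at 28.0 to 106.5 (median 58.5). HLA-B exceeded HLA-C in 2 of 20 ER-Src libraries, both of them TAZi under TAM. Among the non-classical chains, HLA-E ran from 23.0 to 40.8 TPM (median 35.4) and HLA-F from 5.75 to 25.3 (median 12.3). PSMB8 lay at 15.7 to 32.5 (median 21.9), TAP2 at 10.3 to 20.9 (median 14.8), TAP1 at 8.2 to 17.8 (median 12.5) and PSMB9 at 1.92 to 10.2 (median 6.29). The ranges of TAP1, TAP2 and HLA-F overlap, and their order changed between libraries, with TAP1 above TAP2 in 6 of 20. In relation to their level PSMB9, HLA-F and HLA-B spread widest, PSMB9 being also the gene with the fewest reads. The light chain exceeded the sum of the 4 heavy chain genes in all 20 libraries, by 1.62 to 4.92 times.

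**Figure D1:**
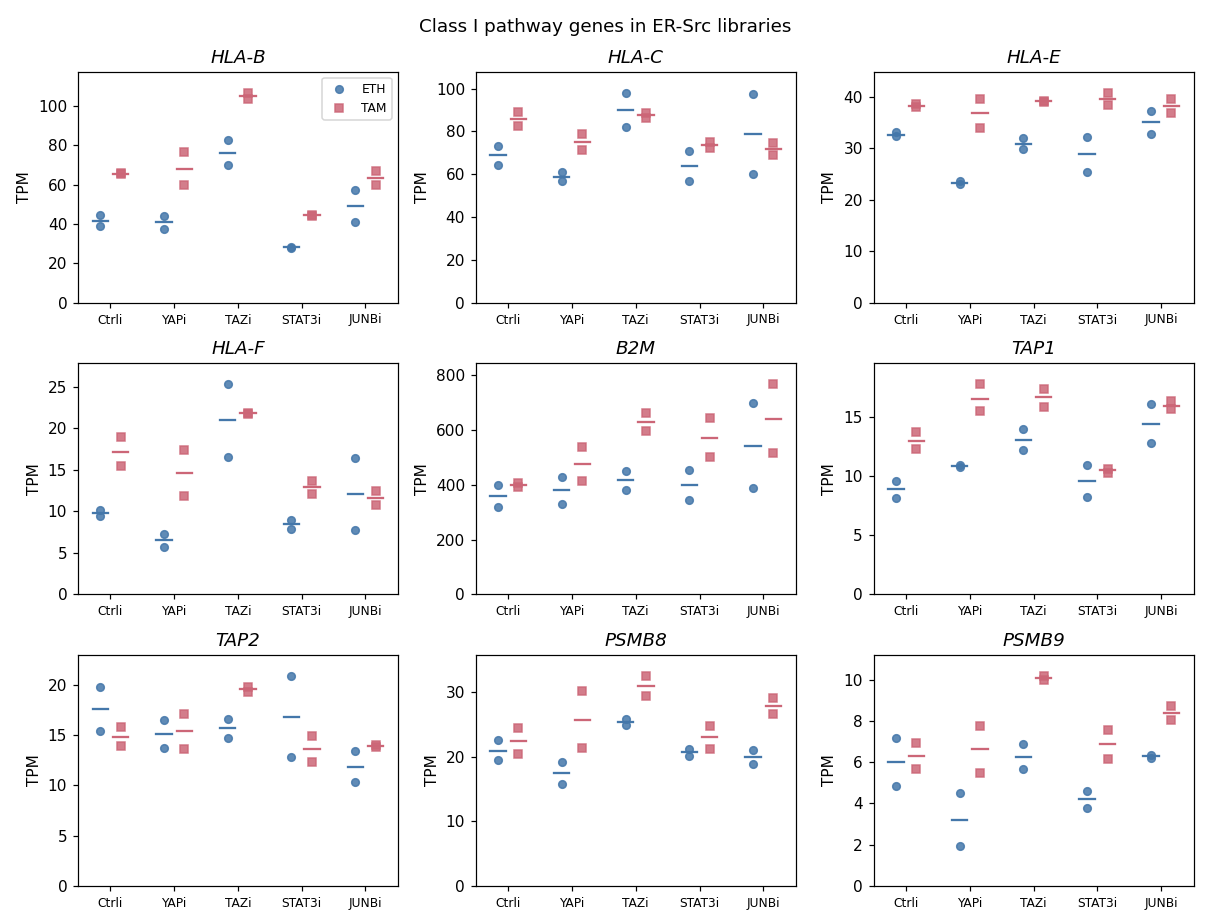
TPM of each gene (1 panel per gene, y axis from 0) in the 10 ER-Src groups, with siRNA on the x axis, ETH and TAM as separate symbols, 1 point per library and a line at the mean of each group. HLA-B lies between 28.0 and 82.5 TPM under ETH and between 44.1 and 106.5 under TAM, and its highest points under either treatment are the TAZi libraries.

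In MDA-MB-231 cells the levels were set side by side only, because line, library type and alleles all differ. HLA-B stood at 513.9 and 563.3 TPM in the set 1 controls, 199.0 to 427.4 in the set 1 knockdowns and 1109.5 to 1263.4 in set 2, and it exceeded HLA-C in 16 of 16 libraries. HLA-C was at 259.4 and 277.7, 55.8 to 144.0 and 396.5 to 447.6 in the same order. B2M was at 2356.1 and 2378.9 TPM in the set 1 controls but at 549.9 to 1417.2 in set 2. There it fell below the summed heavy chains in all 6 libraries (ratio 0.295 to 0.762). PSMB9, the lowest member in ER-Src, was at 69.2 to 94.7 TPM in set 2, close to PSMB8 (100.1 to 116.1).

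Activation of v-Src in control cells came with higher expression of the class I genes. Of the 9 members, 6 rose with TAM in Ctrli cells, namely the 4 heavy chain genes, B2M and TAP1, and none fell. A gene was called where its adjusted p in DESeq2 was under 0.01, and 4.62% of the 15724 genes tested were called higher in this comparison (6.21% in either direction). The members' median log2 fold change was 0.58, beside -0.01 over all genes. The TAM and ETH libraries did not overlap for any of the 9, and with 2 libraries a group this held for 57.5% of all genes tested. The values below are normalised counts, that is, expected counts divided by the size factor of each library in the run at hand, so that the same library has slightly different values in different comparisons. In bulk RNA, a change in the level per cell and a change in the share of cells that express the gene cannot be told apart.

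The classical heavy chain HLA-B had normalised counts of 2038.6 and 2182.4 under TAM and 968.4 and 1220.2 under ETH. It rose by 0.95 on the log2 scale (SE 0.14, 1.93-fold, adjusted p 2.6e-10). HLA-C, at 2731.2 and 3148.9 against 1742.2 and 2177.1, rose 1.5-fold (log2 0.58, SE 0.13, adjusted p 0.0003). Both TAM libraries were above both ETH libraries for each gene, though the ETH libraries themselves differed for HLA-B and HLA-C. HLA-E, whose product holds signal peptides of other class I chains for natural killer receptors, was at 1959.2 and 2149.9 against 1199.8 and 1328.0 (log2 0.70, SE 0.12, adjusted p 2e-07). HLA-F, a low-abundance chain, was at 320.6 and 325.3 against 164.7 and 192.1 (log2 0.86, SE 0.23, adjusted p 0.0028). With the reads of the 4 HLA genes added into 1 feature, which does not depend on how shared reads were split, the rise was 0.72 on the log2 scale.

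B2M, the light chain gene, rose 1.32-fold from 4217.7 and 4452.0 to 5720.6 and 5765.0 (log2 0.41, SE 0.09, adjusted p 0.00014). Its replicates lay closer together than those of any of the heavy chains in both groups. TAP1, the first chain of the transporter, was at 833.2 and 975.8 against 534.0 and 546.7 (log2 0.74, SE 0.15, adjusted p 4e-05). TAP2, the second chain, was not called at 786.8 and 846.6 against 632.7 and 684.2 (log2 0.31, SE 0.15, adjusted p 0.23). The immunoproteasome genes were not called either. PSMB8 was at 548.3 and 618.0 against 462.7 and 485.8 (log2 0.30, SE 0.17, adjusted p 0.38), and PSMB9 at 102.2 and 106.2 against 63.4 and 85.0 (log2 0.49, SE 0.37, adjusted p 0.65).

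The calls were not equally firm. HLA-B remained called when any 1 of the 4 libraries was left out, and HLA-E in 3 of 4 cases (without ETH Ctrli replicate 1, log2 0.62, adjusted p 0.019). HLA-C remained called in 2 of 4 cases and TAP1 in 1 of 4, while HLA-F and B2M were not called in any of the 4, with estimates of 0.75 to 0.96 and 0.36 to 0.44. In 1 fit over all ER-Src groups HLA-B, HLA-E and TAP1 were called and HLA-C (adjusted p 0.091), HLA-F (0.016) and B2M (0.19) were not, and edgeR did not call HLA-C (adjusted p 0.014). On the TPM scale the median of all genes shifted by -0.32 (log2) between ETH and TAM. All 9 members lay above that shift, and 8 of 9 had a TPM ratio above 1, the exception being TAP2 (log2 -0.25). Of the 7 leukocyte markers, CD68 rose with TAM (log2 1.75, SE 0.27, adjusted p 4.4e-09) and their summed level went from 10.2 and 12.3 TPM to 18.9 and 21.3. PTPRC and CD3E were at or below 0.08 TPM in these and all other ER-Src libraries. CD68 encodes a lysosomal protein that epithelial cells can also express, and its part in the result was not tested.

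**Figure D2:**
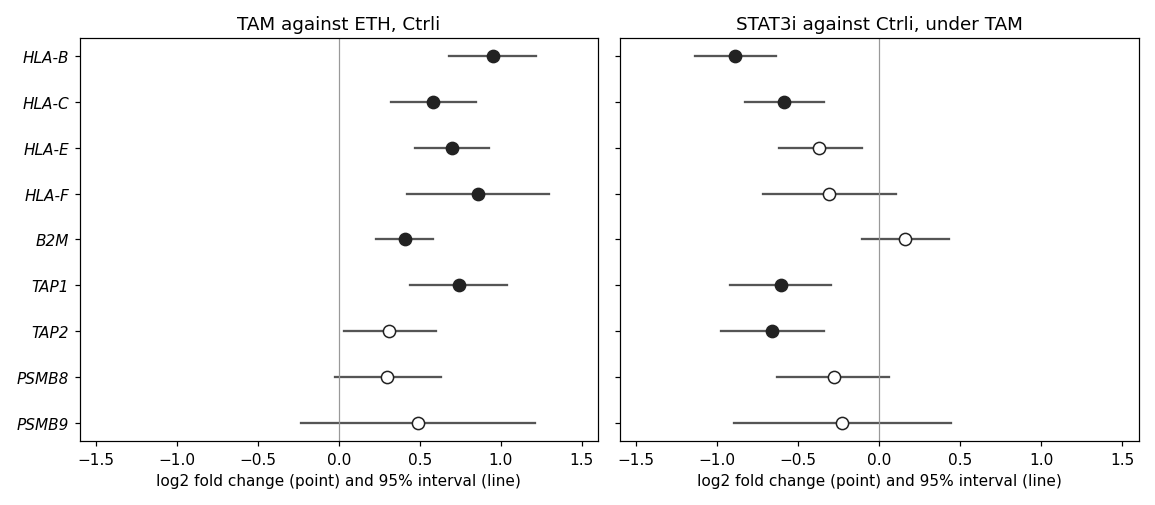
Fitted log2 fold change (points) with 95% intervals (lines) of the 9 genes for TAM against ETH in Ctrli cells and for STAT3i against Ctrli under TAM, with filled points where adjusted p was under 0.01. HLA-B lies at 0.95 in the first panel and at -0.89 in the second, whereas B2M lies above 0 in both (0.41 and 0.16).

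Knockdown of STAT3 under TAM lowered 4 members, HLA-B, HLA-C, TAP1 and TAP2. Of all 14194 genes tested, 4.88% were called lower and 8.22% in either direction. The members' median was -0.37 on the log2 scale and that of all genes 0.03. STAT3 is a transcription factor that cytokines of the IL-6 family activate. These libraries share the TAM Ctrli libraries with the previous comparison, so that an unusual TAM Ctrli value moves both, in opposite directions.

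HLA-B was at 1257.3 and 1336.6 normalised counts in STAT3i and 2323.8 and 2493.9 in Ctrli, and fell by 0.89 on the log2 scale (SE 0.13, adjusted p 2.1e-10). HLA-C was at 2231.4 and 2236.1 against 3113.3 and 3598.4 (log2 -0.59, SE 0.12, adjusted p 7.1e-05). The STAT3i libraries agreed closely for HLA-C, and most of the spread lay between the controls. HLA-E was at 1720.2 and 1914.8 against 2233.3 and 2456.7 and was not called (log2 -0.37, adjusted p 0.04), nor was HLA-F at 287.8 and 305.2 against 366.4 and 370.8 (log2 -0.31, adjusted p 0.38). The 4 HLA genes added together fell by 0.59 (adjusted p 4.8e-06).

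Both transporter chains were lower in STAT3i. TAP1 was at 666.6 and 680.8 against 949.8 and 1115.1 (log2 -0.61, SE 0.16, adjusted p 0.0019) and TAP2 at 549.5 and 630.2 against 899.1 and 965.1 (log2 -0.66, SE 0.16, adjusted p 0.00093). B2M did not follow the heavy chains. It was at 6292.6 and 8345.9 against 6521.0 and 6587.9 (log2 0.16), so that its STAT3i libraries enclosed the controls. PSMB8 had a log2 fold change of -0.28 and PSMB9 of -0.23, neither called.

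HLA-B was again the member that withstood every omission of a library (log2 -0.93 to -0.82). HLA-C remained called in 1 of 4 cases (-0.68 to -0.46), and TAP1 and TAP2 in none of 4 (-0.71 to -0.47 and -0.74 to -0.56). In 1 fit over all ER-Src groups HLA-C (adjusted p 0.057) and TAP1 (0.011) missed the threshold. The STAT3i and JUNBi tables shared a gap between gene length and effective length of 49.0 bases, against 49.5 in the Ctrli tables, so STAT3i was also set against the JUNBi libraries under TAM. HLA-B (log2 -0.67, adjusted p 0.00016) and TAP1 (-0.70, adjusted p 0.00056) remained called there, whereas HLA-C (-0.17, adjusted p 0.66) and TAP2 (-0.30, adjusted p 0.45) did not. The HLA-F and B2M estimates, not called in either case, changed sign (0.20 and -0.26). The JUNBi reference is itself a knockdown. Its log2 fold changes against Ctrli under TAM were 0.43 for B2M, 0.10 for TAP1 and -0.21 for HLA-B. They were -0.41 for HLA-C, -0.50 for HLA-F and -0.35 for TAP2. A JUNBi effect and a STAT3i effect cannot be told apart with this reference. With effective length offsets TAP2 was no longer called (-0.47, adjusted p 0.079). On the TPM scale the median of all genes shifted by 0.40 upwards, and 8 of 9 members lay below that shift, B2M being the exception. Before that shift is taken off, 4 of the 9 (HLA-E, B2M, PSMB8 and PSMB9) had TPM ratios above 1, and TAP2 had a log2 TPM ratio of -0.13. The leukocyte markers CD14 (log2 -1.23, adjusted p 1.8e-05) and CD68 (log2 -1.26, adjusted p 1.3e-05) were lower as well, 2 of the 7, and the summed level of the 7 was 11.5 and 11.6 TPM against 18.9 and 21.3, a difference whose part in the result was not tested.

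Knockdown of TAZ raised HLA-B in both treatments. Under ETH the gene was at 2110.1 and 2424.1 against 1073.4 and 1351.6 normalised counts (log2 0.90, SE 0.14, adjusted p 3.3e-08). Under TAM it was at 3302.3 and 3552.6 against 2174.8 and 2330.7 (log2 0.61, SE 0.10, adjusted p 3.7e-07). All TAZi libraries thus exceeded all Ctrli libraries of their treatment. Groups did not overlap for 61.3% of all genes tested under ETH and 59.8% under TAM. WWTR1, the gene of TAZ, was lower in both knockdowns (log2 -1.86 and -2.22). In each treatment 2 members were called, and both rose. Of all genes, 2.6% were called higher under ETH (5.24% in either direction) and 1.75% under TAM (3.42% in either direction).

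The second member differed between treatments. HLA-F rose under ETH, at 323.9 and 387.8 against 182.6 and 212.7 (log2 0.85, SE 0.23, adjusted p 0.0047), while under TAM it was at 454.3 and 464.1 against 342.4 and 347.0 (log2 0.41, not called). B2M rose under TAM, at 8645.7 and 8777.5 against 6102.8 and 6156.9 (log2 0.51, SE 0.08, adjusted p 7.6e-08), while under ETH it was at 4932.7 and 5784.2 against 4671.8 and 4934.7 (log2 0.16, not called). The difference of the TAZi effect between TAM and ETH was 0.33 for B2M (SE 0.13, p 0.0086, adjusted p 0.11) and -0.45 for HLA-F (SE 0.27, p 0.094, no adjusted p after independent filtering), and neither passed the test. TAP1, TAP2 and PSMB8 had log2 fold changes of 0.21, 0.04 and 0.30 under TAM and 0.42, 0.00 and 0.17 under ETH, none called. HLA-C and HLA-E lay within the spread of the controls under TAM, where HLA-C was at 2954.5 and 3081.2 against 2913.6 and 3363.0.

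With TAZi the 4 HLA genes summed gave 0.19 under TAM (adjusted p 0.26) and 0.49 under ETH (adjusted p 0.0011), less than HLA-B alone. The sum includes HLA-C and HLA-E, whose log2 fold changes under TAM were -0.05 and -0.01. A smaller value thus follows whether or not reads were shared, and does not show how they were split. Leaving out 1 library kept HLA-B called in 3 of 4 cases under either treatment. The exceptions were TAM TAZi replicate 1 (log2 0.56, adjusted p 0.027) and ETH Ctrli replicate 1 (log2 0.74, adjusted p 0.014). B2M under TAM was kept in 3 of 4 cases (without TAM TAZi replicate 2, log2 0.50, adjusted p 0.027) and HLA-F under ETH in 0 of 4 (0.71 to 0.97). Without TAM TAZi replicate 1 or 2 the count of called members was therefore 1 rather than 2. In 1 fit over all ER-Src groups HLA-B (adjusted p 0.045) and B2M (0.074) were not called under TAM, and edgeR gave B2M an adjusted p of 0.018. The same fit did not call HLA-F under ETH (adjusted p 0.018). Among the basal markers KRT17 also rose with TAZi under TAM (log2 0.35, adjusted p 0.0031), and 4 of the 5 (KRT5, KRT14, KRT17 and CDH1) rose under ETH. The summed leukocyte markers were at 21.7 and 24.4 TPM in TAZi under TAM against 18.9 and 21.3 in Ctrli, with HLA-DRA called higher, and their part in the result was not tested.

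JUNB knockdown under TAM raised B2M alone, from 6343.0 and 6430.6 to 8242.2 and 9022.3 normalised counts (log2 0.43, SE 0.11, adjusted p 0.0011). Here 2.84% of all genes were called higher and 6.9% in either direction. The heavy chains showed lower values that were not called. HLA-C was at 2273.9 and 2660.0 against 3028.3 and 3512.5 (log2 -0.41, SE 0.13, adjusted p 0.024) and HLA-F at 220.5 and 286.3 against 357.6 and 360.6 (log2 -0.50, adjusted p 0.14). HLA-B, at 1865.1 and 2196.0 against 2260.4 and 2434.4, gave -0.21 and TAP2 -0.35. The leukocyte marker CD68 was lower there (log2 -2.35). B2M remained called in 1 of 4 omissions (0.37 to 0.50) and was called neither by edgeR (adjusted p 0.032) nor in 1 fit over all ER-Src groups (adjusted p 0.11). Under ETH no member was called in JUNBi by DESeq2 (2.8% of genes in either direction) or edgeR, none had an unadjusted p under 0.05, and the replicates lay far apart. HLA-C there was at 1950.7 and 3662.8 against 2298.2 and 2868.8, and HLA-B at 1273.4 and 2159.2 against 1277.5 and 1607.9.

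With YAP knockdown no class I gene was called under TAM, where 10.7% of genes were called, or under ETH, where 11.6% were. At an unadjusted p under 0.05 there were 2 members under TAM (B2M and TAP1) and 0 under ETH, and edgeR called 0 in both. YAP1 itself fell by 2.49 and 2.38 on the log2 scale. Under TAM, HLA-B was at 2287.7 and 2650.0 against 2258.7 and 2424.3 (log2 0.08, 95% interval -0.17 to 0.32) and HLA-C at 2919.6 and 2947.6 against 3026.1 and 3498.0 (log2 -0.15, -0.38 to 0.08). B2M, at 7067.7 and 8074.0 against 6338.5 and 6404.0 (log2 0.25, 0.04 to 0.46, adjusted p 0.11), and TAP1, at 1240.1 and 1290.5 against 923.2 and 1084.0 (log2 0.34, 0.06 to 0.62, adjusted p 0.094), showed no overlap between groups, as 67.4% of all genes did, and did not pass. Under ETH the estimates ran from -0.64 for PSMB9 (40.1 and 90.6 against 88.4 and 118.9) to 0.28 for TAP1 (866.0 and 969.8 against 746.4 and 761.6).

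STAT3 knockdown under ETH called no member by DESeq2 or edgeR, and 0.189% of all genes. HLA-B was at 882.4 and 958.8 against 1274.6 and 1591.4 (log2 -0.64, p 0.00081, adjusted p 0.22), so that both STAT3i libraries lay below both controls, as under TAM. Groups did not overlap for 40.1% of all genes here. None of the 9 members passed the test of a different knockdown effect in TAM and ETH for any of the 4 siRNAs, with 0.498% of genes called for YAPi, 1.6% for TAZi, 1.34% for STAT3i and 0.288% for JUNBi. The unadjusted p was under 0.05 for 2 members with TAZi (HLA-C and B2M), 2 with STAT3i (TAP1 and TAP2) and 0 with YAPi and JUNBi, and edgeR called 0. For TAZi, HLA-F and PSMB9 had no adjusted p and could not be called. For STAT3i the difference was -0.27 for HLA-B (SE 0.22, adjusted p 1.0), -0.56 for TAP1 (SE 0.25, p 0.024) and -0.60 for TAP2 (SE 0.27, p 0.029). An effect on HLA-B that is particular to TAM was thus not shown.

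**Figure D3:**
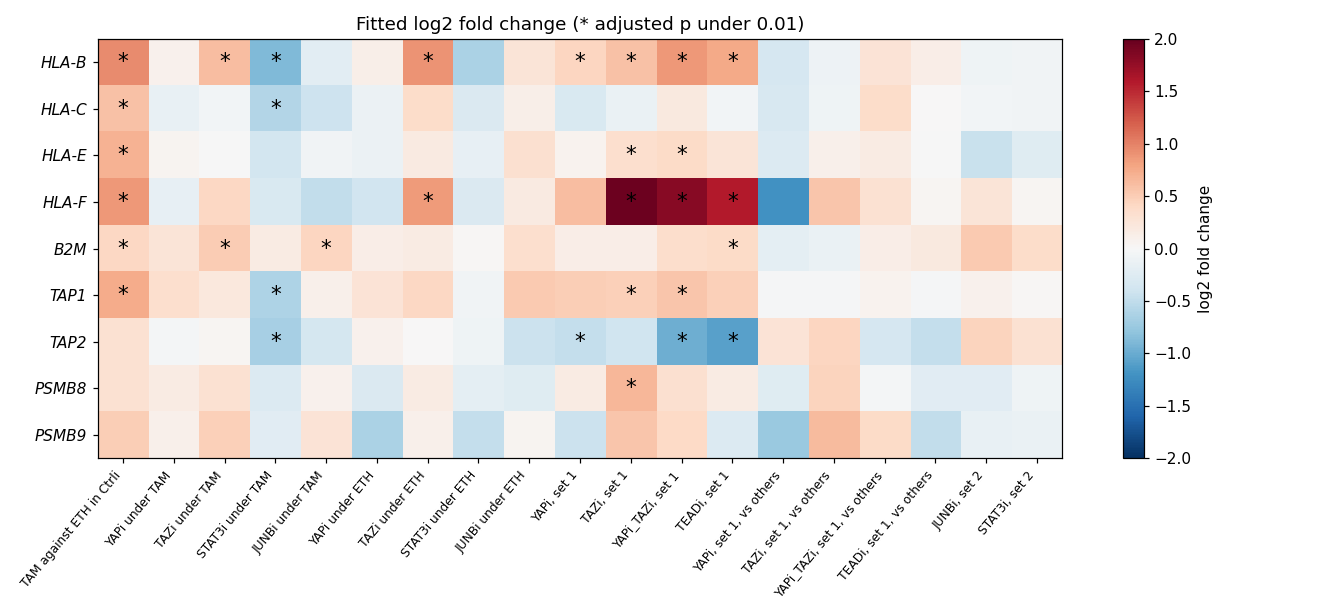
Heat map of the fitted log2 fold change (colour scale) of the 9 genes (y axis) in each comparison of a treatment or knockdown (x axis), with a star where adjusted p was under 0.01. HLA-B is starred with TAM (0.95), with TAZi under both treatments (0.90 and 0.61) and, with the opposite sign, with STAT3i under TAM (-0.89), and no star falls on PSMB9.

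In MDA-MB-231 set 1, members were called against the set 1 controls in every knockdown, in comparisons where a large share of all genes was called. The called share of all genes was 24.4% for YAPi, 32.8% for TAZi, 35.6% for YAPi_TAZi and 27.5% for TEADi. Genes called higher made up 12.4%, 16%, 17.3% and 13.5% in that order, and genes called lower 12.1%, 18.2% and 14% in YAPi, YAPi_TAZi and TEADi. HLA-B was called higher in each of the 4. It was at 3495.1 and 3613.4 against 2481.0 and 2777.1 in YAPi (log2 0.43, SE 0.10, adjusted p 0.00017), and its log2 fold change was 0.59 in TAZi, 0.86 in YAPi_TAZi and 0.76 in TEADi. The YAPi call was lost with the 4 HLA genes summed (0.19, adjusted p 0.09), with effective length offsets (0.34, adjusted p 0.055) and in 3 of 4 omissions of a library (0.34 to 0.50 over the 4). HLA-F had the widest differences, at 180.6 and 191.1 against 42.6 and 52.8 in TAZi (log2 1.96, adjusted p 1e-13), with 1.82 in YAPi_TAZi and 1.59 in TEADi. It had only 25 to 89 expected counts in the set 1 knockdown libraries. With 1 library left out, its estimates were 1.79 to 2.10 in TAZi, 1.16 to 2.25 in YAPi_TAZi and 1.42 to 1.74 in TEADi. The YAPi_TAZi and TEADi calls were lost in most of these omissions. With the replicate as a block HLA-F was not called in TEADi (log2 1.6, adjusted p 0.013 by DESeq2). TAP2 went the other way, with lower values. It was at 428.6 and 559.0 against 1026.7 and 1036.5 in TEADi (log2 -1.08, SE 0.17, adjusted p 3.1e-09), with -0.97 in YAPi_TAZi and -0.47 in YAPi. TAP1 was called higher in TAZi (0.47) and YAPi_TAZi (0.55), HLA-E in the same knockdowns (0.33 and 0.39), PSMB8 in TAZi (0.66) and B2M in TEADi (0.39). With effective length offsets TAP2 was called in TEADi alone (YAPi 0.01, YAPi_TAZi -0.35, adjusted p 0.99 and 0.21), and HLA-E, TAP1, PSMB8 and B2M lost these calls. Markers of other cells moved in the same comparisons. CD68 was lower in YAPi (-0.81), TAZi (-1.24) and YAPi_TAZi (-0.76), CD14 lower in TAZi (-3.09), and KRT17 higher in YAPi_TAZi (5.12) and TEADi (4.22). The higher KRT17 lay in replicate 1 alone, with 3.14 to 6.25 TPM over the 4 knockdowns. In replicate 2 KRT17 was at 0.0 to 0.68 TPM, and in the controls at 0.32 to 0.71. The summed level of the 7 leukocyte markers was 345.1 and 361.5 TPM in the controls and 70.3 to 196.6 in the knockdowns, and that of the 5 basal markers 0.8 and 1.48 against 0.0 to 19.8, differences whose part in the result was not tested.

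These set 1 values depend on the reference libraries. On the TPM scale the median of all genes shifted by -1.45, -1.41, -1.32 and -1.45 in YAPi, TAZi, YAPi_TAZi and TEADi, and all members had TPM ratios below 1 except HLA-F in TAZi and YAPi_TAZi. HLA-B gave log2 TPM ratios of -1.07, -0.87, -0.51 and -0.70, which lie above the shift in each case. With the controls of both sets as the reference, 0 members were called in any of the 4 knockdowns, and the HLA-B estimate changed sign (-0.92, -0.77, -0.50 and -0.60). Set against the other 3 set 1 knockdowns, each with 1 library of either type and with the replicate as a block, no member was called for YAPi (0.619% of genes), TAZi (0.32%), YAPi_TAZi (1.13%) or TEADi (1.87%). The unadjusted p was under 0.05 for 3 members in YAPi (HLA-B, HLA-E and HLA-F) and for 1 each in TAZi (PSMB8), YAPi_TAZi (HLA-C) and TEADi (TAP2), and edgeR called 0. HLA-B had estimates of -0.33, -0.10, 0.27 and 0.13 in that order. HLA-F in YAPi, at 21.7 and 27.6 against 37.0 to 80.2, had the lowest unadjusted p (log2 -1.21, SE 0.37, p 0.00096), with no adjusted p after independent filtering, and PSMB9 in YAPi had none either. TAP2 in TEADi was at 158.0 and 209.3 against 195.5 to 330.4 (log2 -0.48, adjusted p 0.31). Any effect shared by all 4 knockdowns is not visible in these last comparisons.

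**Figure D4:**
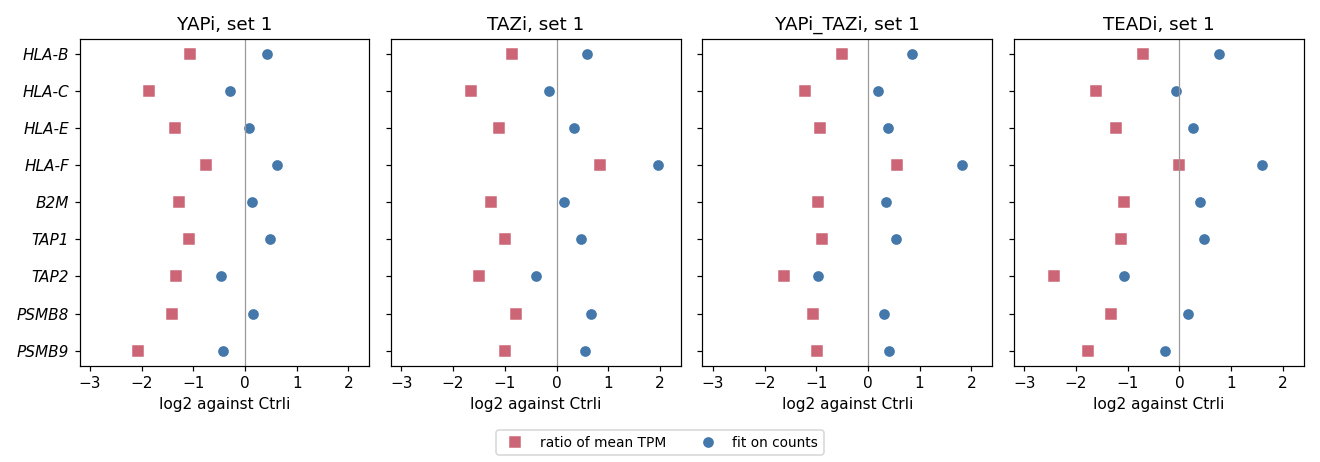
Log2 difference against the set 1 controls (x axis) of the 9 genes (y axis) in the 4 set 1 knockdowns, as fitted on counts (circles) and as the ratio of mean TPM (squares). HLA-B lies at 0.43 to 0.86 on counts and at -1.07 to -0.51 on TPM, and TAP2 lies below 0 on both scales in each panel.

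In MDA-MB-231 set 2 no member was called in JUNBi (3.41% of genes) or STAT3i (0.497%), by DESeq2 or edgeR. At an unadjusted p under 0.05 there were 2 members in JUNBi (B2M and HLA-E) and 0 in STAT3i. JUNB was called lower in JUNBi (log2 -2.04). In STAT3i the targeted gene STAT3 was at 73.5 and 94.4 against 363.9 and 527.7 (log2 -2.41, p 8.4e-14), but had no adjusted p, since independent filtering left 2013 genes, and HLA-F, TAP1 and PSMB9 had none either. HLA-B, which STAT3i lowered in ER-Src cells under TAM, was at 11314.3 and 12358.2 against 12313.4 and 12471.9 (log2 -0.07, 95% interval -0.36 to 0.22). HLA-C had the same estimate of -0.07, and TAP1 one of 0.02. B2M was at 4990.4 and 5118.3 against 3054.2 and 4845.9 in STAT3i (log2 0.36, adjusted p 0.39) and at 6805.5 and 7138.1 against 3775.8 and 5974.6 in JUNBi (log2 0.52, adjusted p 0.11). Both knockdowns thus lay above both controls for B2M, in comparisons where groups did not overlap for 49.7% and 61.7% of all genes. The controls of this set differed from each other, since Ctrli replicate 4 had B2M at 549.9 TPM and TAP2 at 17.8, against 995.3 and 60.5 in replicate 3. Without Ctrli replicate 3, B2M was called in JUNBi (log2 0.89, adjusted p 9.6e-05) and STAT3i (0.73, adjusted p 9.1e-05) and TAP2 in JUNBi (0.90, adjusted p 0.003), in fits where the lone control is assumed to vary like the other group. HLA-E was lower in JUNBi without passing, at 3784.2 and 4096.9 against 4887.1 and 5846.1 (log2 -0.45, adjusted p 0.091).

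Genes that work beside the members were counted from fixed lists. Of 10 partners of the class I pathway (the loading complex, peptide trimming and the proteasome activator), 3 rose with TAM in Ctrli cells and none fell. They were TAPBP, which bridges TAP and the heavy chain (467.8 and 475.4 against 262.8 and 283.3, log2 0.79, adjusted p 0.00059), the disulfide isomerase PDIA3 (0.35, adjusted p 0.0093) and the proteasome activator subunit PSME1 (0.50, adjusted p 0.0065). In STAT3i under TAM, TAPBP was the 1 partner called, at 184.1 and 253.3 against 534.5 and 542.0 (log2 -1.30, SE 0.22, adjusted p 1.5e-07), and so changed the same way as TAP1 and TAP2. TAPBP was higher in YAPi under TAM (0.57) and ETH (0.84) and in TAZi under ETH (0.70). TAZi and JUNBi under TAM, the knockdowns with higher B2M, each had 2 partners called higher, the chaperones CALR (0.40 and 0.41) and CANX (0.59 and 0.45). Among 14 constitutive proteasome genes none was called with TAM in Ctrli or with YAPi, TAZi or STAT3i under TAM, 1 (PSMA3, 0.57) in JUNBi under TAM and 1 (PSMB7, -0.42) in YAPi under ETH.

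Of 14 regulators of class I genes, 3 rose with TAM in Ctrli cells and none fell. IRF1, a direct activator of class I promoters, was at 285.0 and 306.1 against 162.4 and 171.2 (log2 0.83, adjusted p 0.0057). IRF9 (1.35, adjusted p 0.00074) and STAT2 (0.67, adjusted p 0.00081) belong to the factor that type I interferon activates. In STAT3i under TAM 1 of the 14 regulators was called. IRF9 was higher, at 336.2 and 411.6 against 184.3 and 185.8 (log2 1.02, adjusted p 0.00043), and the other 13 were not called. The list's median was -0.06 on the log2 scale, with 7 of 14 estimates above 0. In YAPi under TAM, where no member was called, NLRC5 (0.90, adjusted p 0.0087) and IRF1 (0.68, adjusted p 0.0036) were higher, and NFYA, a subunit of the CCAAT-binding factor, was lower (-0.75, adjusted p 0.0038). NFYA was also lower in YAPi (-1.10) and TAZi (-0.91) under ETH. No regulator was called in TAZi under TAM.

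Of 11 interferon receptor, kinase and ligand genes, of which 8 had an adjusted p, both chains of the interferon-gamma receptor rose with TAM in Ctrli cells. IFNGR1 was at 1420.6 and 1480.8 against 815.2 and 880.4 (log2 0.77, adjusted p 3.1e-08) and IFNGR2 at 1027.4 and 1104.4 against 629.2 and 634.4 (log2 0.75, adjusted p 1.5e-06). IFNGR2 was lower in STAT3i under TAM (-0.89, adjusted p 2e-07). IFNGR1 was higher in YAPi (0.74), TAZi (0.99) and JUNBi (1.16) under TAM and in YAPi (0.84), TAZi (0.76) and JUNBi (0.99) under ETH, whether or not class I genes were called there.

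Across the 20 ER-Src libraries the members varied together to different degrees. Pearson's r on log2(TPM + 1) over the 36 pairs of members ran from -0.27 to 0.93 with a median of 0.56, and 34 pairs were above 0. These libraries share treatments and knockdowns, and HLA genes share reads, so the values are given as a description. The highest r was between HLA-C and HLA-F (0.93), then PSMB8 and PSMB9 (0.85) and HLA-B and HLA-F (0.84). TAP2 was the member least like the rest, at 0.29 with the mean profile of the 9, and B2M was next at 0.54. PSMB8 (0.91), HLA-B (0.89), PSMB9 (0.88) and HLA-F (0.87) were closest to that profile. TAP1 and TAP2, which act as one heterodimer, gave r of 0.10. Among 6380 other protein-coding genes with a mean of at least 5 TPM, those most like the mean profile were TRAF4 (0.93), an adaptor protein of the TRAF family, C1R (0.90), a protease of the complement system, NNMT (0.88), PLD2 (0.87) and PVR (0.86), a ligand of natural killer receptors.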

How the data were processed

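By the paper's methods, RNA was extracted with an mRNeasy Mini kit, made into libraries with a TruSeq Ribo Profile kit and sequenced on a HiSeq instrument. The methods name no other library kit for RNA. The share of RNAs without poly(A) nevertheless differed widely among the 36 libraries, as given above, so which libraries were made with this kit is not known. The authors trimmed the reads, aligned them with STAR to the GENCODE v30 transcriptome (hg38), keeping up to 20 alignments per read, and quantified genes with RSEM, whose versions were not given in the sources used here. The deposited tables hold expected counts, which were rounded here, and TPM, which the authors' RSEM run computed per length. Gene symbols were matched for 93.1% of 60725 genes through GENCODE version 44.

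Each comparison was a separate DESeq2 1.42.0 run (Wald test, defaults) on its own groups, called at an adjusted p under 0.01. The set 1 knockdowns were compared with one another under a replicate block, because their replicates were known to differ in effective length. Same-numbered libraries there deviated together (r 0.333 to 0.385). The other main fits had no block. Intervals are at 95%. Depth was 1411304 to 19161700 counts per library. The fits were checked on simulated counts. Alternatives were edgeR 4.0.16, TMM size factors, a mean count of at least 10, effective length offsets, 1 fit over all ER-Src groups, the replicate block, pooled HLA reads, controls of both sets and the omission of each library. TAP2 with its readthrough gene and JUNBi libraries as the reference for STAT3i were added after seeing the data. All 9 members are reported. From each list at most the 4 called genes with the largest change are named, and genes most like the members are those with the highest Pearson r to their mean profile. The members and lists were chosen with earlier results of these data known. Some genes of these lists are counted but not reported here by name.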

Additional observations from a re-analysis of the deposited data

Results flagged for a closer look

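In 2 cases all libraries of a knockdown moved one way in ER-Src cells under TAM and the opposite way in MDA-MB-231 set 2. HLA-F had a log2 fold change of -0.50 with JUNBi under TAM and of 0.26 with JUNBi in set 2. TAP2 had -0.35 and 0.45 in the same comparisons. None of these values was called, and the difference between the lines was not tested. Groups did not overlap for 65.1% of all genes tested with JUNBi under TAM and for 61.7% in set 2.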

How the results depend on the processing

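Of 2437 values of members under an alternative, 2145 kept their direction and side of the threshold, 112 were no longer called and 29 became called. A further 10 that were called in one of the fits changed sign, as did 141 that were called in neither. Under pooled HLA reads, the value set against each HLA gene in these counts is that of the sum. The number of members called moved as follows. In 1 fit over all ER-Src groups it went from 6 to 3 for TAM against ETH, from 2 to 0 for TAZi, 4 to 2 for STAT3i and 1 to 0 for JUNBi under TAM, and from 2 to 1 for TAZi under ETH. The replicate block gave 2 for STAT3i under TAM, 1 for TAZi under ETH, and 1 for YAPi and 2 for TAZi in set 1. ER-Src libraries of the same replicate number have no label that ties them. The r of their deviations was -0.058 to 0.09 for TAM against ETH and the knockdowns under TAM, 0.12 to 0.352 for the knockdowns under ETH and -0.112 to 0.474 over the group pairs of the differences, and set 2 controls and knockdowns share none. By edgeR the count was 1 for TAZi and 0 for JUNBi under TAM, and with JUNBi libraries as the reference it was 2 for STAT3i. Effective length offsets gave 0 for YAPi, 2 for TAZi and 2 for YAPi_TAZi in set 1, and controls of both sets gave 0 for all 4 set 1 knockdowns.

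With controls of both sets HLA-B changed sign in YAPi (-0.92), TAZi (-0.77), YAPi_TAZi (-0.50) and TEADi (-0.60), HLA-E in TAZi (-0.43) and YAPi_TAZi (-0.38), and PSMB8 in TAZi (-0.19). With effective length offsets TAP2 in YAPi was at 0.01. The cause of these sign changes was not tested. The 4 HLA genes summed gave 0.40 in TAZi and 0.48 in TEADi where HLA-C alone was below 0. That sum is another feature than HLA-C, and HLA-B had the most reads in it. In TAZi HLA-B had expected counts of 1264.0 and 1940.2, against 384.1 and 567.1 for HLA-C.

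Leaving out 1 library gave 1 to 4 called members for TAM against ETH, 1 to 2 for TAZi and STAT3i under TAM, 0 to 1 for JUNBi under TAM, TAZi under ETH and the TAZi difference between treatments, and 0 to 2 for JUNBi under ETH and the JUNBi difference. In set 1 the ranges were 0 to 3 (YAPi), 1 to 6 (TAZi), 2 to 5 (YAPi_TAZi) and 2 to 4 (TEADi), and in set 2 they were 0 to 2 (JUNBi) and 0 to 1 (STAT3i). A group left with 1 library was assumed to vary like the others.

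Counts over all genes moved by more than 1.5 times in several settings. The replicate block gave 619 against 976 for TAM against ETH, 177 against 470 for TAZi and 655 against 1167 for STAT3i under TAM, and 404 against 739 for TAZi under ETH. By edgeR 195 genes were called for TAZi under TAM, 491 for TAZi under ETH, 1 against 421 for JUNBi under ETH, and 0 against 272 for JUNBi and 0 against 10 for STAT3i in set 2. Controls of both sets gave 1222, 1183, 1651 and 1502 genes in set 1 in place of 4049, 5822, 6792 and 4682. The block also gave 770 against 1550 (YAPi under TAM), 1122 against 1713 and 11 against 37 (YAPi and STAT3i under ETH), 100 against 46 (JUNBi difference), and 2555, 2743 and 2955 for YAPi, TAZi and TEADi in set 1. By edgeR STAT3i under ETH gave 0, the differences for YAPi, TAZi, STAT3i and JUNBi 15, 5, 56 and 0 against 78, 71, 221 and 46, and the set 1 knockdowns against one another 0, 1, 9 and 46 against 21, 34, 108 and 198. With all ER-Src groups fitted at once, JUNBi under ETH had 1752 calls, with 48, 19 and 128 for the YAPi, TAZi and JUNBi differences. Effective length offsets gave 12 for STAT3i under ETH, 120 for the TAZi difference, 3821 and 4098 for TAZi and YAPi_TAZi in set 1, and 13, 17 and 103 for YAPi, TAZi and TEADi against the other set 1 knockdowns. STAT3i under ETH gave 17 with TMM and 259 with the JUNBi reference, and controls of both sets gave 3 for JUNBi and 1 for STAT3i in set 2. The share of higher calls moved from 51.1% to 62.6% for TAZi under TAM by edgeR, from 49.7% to 36.8% for TAZi under ETH with effective length offsets, and from 40.6% to 50.8% for STAT3i under TAM with the JUNBi reference. The set 1 knockdowns had the lowest depth, at 1411304 to 2784605 counts.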

Other observations

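Class II antigen presentation genes, which present peptides to CD4 T cells, changed in some of the ER-Src knockdowns. In YAPi under TAM, where no class I member was called, 6 of 8 class II genes rose. HLA-DRA, a class II chain, was at 101.5 and 158.5 normalised counts against 1.72 and 7.42 (log2 4.67, adjusted p 5.9e-10 by DESeq2). HLA-DRB1 was at 24.3 and 34.5 against 0 in both controls, HLA-DMB, which helps load class II molecules, at 29.8 and 40.7 against 1.06 and 3.44, and HLA-DPA1 at 33.4 and 76.2 against 0.0 and 8.48. The other two were HLA-DMA and CIITA, the class II transactivator, which was named after its values were seen, at 270.4 and 296.7 against 27.6 and 32.7. In TAZi under TAM, where 2 class I members were called, 4 of 8 rose. HLA-DRA was at 78.3 and 80.2 against 1.65 and 7.14, HLA-DMA at 55.5 and 62.2 against 9.18 and 9.93, CD74, the invariant chain, at 79.6 and 98.3 against 19.9 and 31.6, and CIITA at 86.4 and 92.4 against 26.5 and 31.4. In STAT3i under TAM, where 4 class I members fell, CD74 was the 1 class II gene called, at 0.669 and 0.768 against 21.2 and 33.8 (log2 -5.27, adjusted p 0.0016), and 2 of the 8 had an adjusted p. These are low levels. No class II gene was called for a different YAPi effect between TAM and ETH (7 of 8 had an adjusted p), and for TAZi none had an adjusted p, so that none could be called.

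Of 10 ligands of natural killer and checkpoint receptors, 2 rose with TAM in Ctrli cells. CD274, which encodes PD-L1, was at 49.7 and 54.2 normalised counts against 9.56 and 13.0 (log2 2.20, adjusted p 0.0072 by DESeq2). PVR was at 1188.0 and 1236.9 against 695.3 and 711.7 (log2 0.79) and fell in STAT3i under TAM, from 1357.6 and 1410.0 to 875.4 and 946.4 (log2 -0.60).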
